A study of Mus musculus with 6 samples.

Results

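The 10 genes described here are a chosen group around the liver X receptors and sterol export from cells: Abca1, Abcg1, Apoe, Apoc1, Apoc2, Mylip, Nr1h3, Srebf1, Lpcat3 and Ch25h. The group includes a receptor gene, Nr1h3, and Ch25h, whose product makes an oxysterol and does not export sterols. The genes were taken by gene symbol from the deposited table of 56980 genes. All 10 had a row and passed the low-count filter, so all 10 were among the 16010 genes tested. Expression was measured by bulk RNA sequencing in monocytes from B16F10-mCherry tumours, a mouse melanoma line grown in mice, sorted as CD11b+, Ly6Chi and Ly6G-. All 6 libraries carry the genotype label WT. In the LNP-GFP group (3 libraries) the treatment was lipid nanoparticles with GFP, and in the LNP-Gsdme group (3 libraries) lipid nanoparticles with Gsdme, which encodes the pore-forming protein gasdermin E. Mouse strain, age, dose and time of sampling, and whether each library is 1 animal, are not stated in the labels; p-values therefore measure no more than the spread among these libraries, and that spread may be technical.

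Liver X receptors are nuclear receptors that bind oxysterols and other cholesterol intermediates and act on DNA as a pair with a retinoid X receptor. In macrophages and monocytes they raise the cholesterol pumps ABCA1 and ABCG1 and the lipoprotein acceptors that carry the sterol away, and they lower uptake through the ubiquitin ligase MYLIP, which removes lipoprotein receptors. They also raise SREBF1, the switch for fatty acid synthesis, and LPCAT3, which puts polyunsaturated chains into phospholipids. CH25H makes the oxysterol 25-hydroxycholesterol and is known as an interferon-induced gene of myeloid cells.

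The promoters of 8 of the 10 genes are in the RefSeq-based table of promoter sequences, with 13 start sites in all, and Abcg1 and Apoc1 are not among them. The sequences of Abca1 and Srebf1 are shown because both hold letters of the DR4 type, that of Fasn because it holds the same letters as Abca1, and those of Apoe and Ch25h because these genes changed. A DR4 repeat, the kind of site that liver X receptors are known to bind, is 2 copies of AGGTCA on 1 strand with any 4 bases between them. Each line gives the 250 bases before a start site, 5′ to 3′ along the gene, credited to RefSeq on GRCm38.p6 (the gene positions given later are on GRCm39). Capitals mark a match to the DR4 repeat with at most 3 mismatches, or to the string GCCGGGGTTACTANCGG, on either strand, and 2 such matches that overlap are joined. The matches lie on the reverse strand, so TGACCGGTAGTAACCC in Abca1 is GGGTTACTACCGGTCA on the other strand.
Abca1, chr4:53159896-53160145, minus strand: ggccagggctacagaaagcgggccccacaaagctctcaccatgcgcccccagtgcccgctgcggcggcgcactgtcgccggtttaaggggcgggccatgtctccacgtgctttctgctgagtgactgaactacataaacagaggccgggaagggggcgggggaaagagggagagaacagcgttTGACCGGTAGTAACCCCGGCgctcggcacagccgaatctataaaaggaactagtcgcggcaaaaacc
Srebf1, the most downstream of its 3 listed start sites, chr11:60210472-60210721, minus strand: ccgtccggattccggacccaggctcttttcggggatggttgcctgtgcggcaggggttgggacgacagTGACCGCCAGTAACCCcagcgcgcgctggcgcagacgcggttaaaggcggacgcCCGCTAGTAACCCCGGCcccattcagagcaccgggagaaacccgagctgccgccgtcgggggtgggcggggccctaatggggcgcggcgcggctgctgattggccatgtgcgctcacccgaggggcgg
Fasn, chr11:120824548-120824797, minus strand: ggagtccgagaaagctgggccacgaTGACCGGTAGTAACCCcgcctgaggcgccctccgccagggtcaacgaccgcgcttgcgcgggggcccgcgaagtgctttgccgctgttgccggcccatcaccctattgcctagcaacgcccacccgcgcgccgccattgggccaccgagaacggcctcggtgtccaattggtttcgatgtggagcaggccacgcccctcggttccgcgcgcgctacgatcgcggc
Apoe, the most upstream of its 3 listed start sites, chr7:19699189-19699438, minus strand: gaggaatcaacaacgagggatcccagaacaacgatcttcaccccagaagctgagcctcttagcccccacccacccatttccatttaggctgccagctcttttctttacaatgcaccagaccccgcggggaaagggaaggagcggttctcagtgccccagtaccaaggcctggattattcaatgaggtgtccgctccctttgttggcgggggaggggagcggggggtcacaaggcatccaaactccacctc
Ch25h, chr19:34475149-34475398, minus strand: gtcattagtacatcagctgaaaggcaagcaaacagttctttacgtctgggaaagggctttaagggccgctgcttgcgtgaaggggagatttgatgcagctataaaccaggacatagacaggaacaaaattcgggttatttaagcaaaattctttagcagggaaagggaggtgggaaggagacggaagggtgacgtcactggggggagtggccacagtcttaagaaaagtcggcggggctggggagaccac
GCCGGGGTTACTANCGG is the longest string that Abca1 and Srebf1 share with at most 1 differing base (N), so that both hold it was fixed by the choice, and among all 32851 promoter windows of this length no other held it on either strand. The DR4-type letters of Abca1, TGACCGGTAGTAACCC, were in 2 windows (0.00609%), those of Abca1 and of Fasn, which encodes fatty acid synthase. They end 51 bases before the Abca1 start and 209 bases before the Fasn start. In Srebf1 the DR4-type letters are TGACCGCCAGTAACCC, 166 bases before the start, and the string shared with Abca1 ends 111 bases before it. A DR4 match with at most 3 mismatches was present in 18.5% of all windows and an exact DR4 repeat in 0.0152%. The core of the interferon response element, 2 copies of GAAA with any 2 bases between them on either strand, stood in 2.98% of windows and in none of the 13 windows of these genes, that of Ch25h included. Matches are a description of letters, and no binding data were analysed here.

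Against LNP-GFP, 3 of the 10 genes changed in LNP-Gsdme monocytes: Abcg1 and Ch25h rose and Apoe fell, while Abca1 and the other 6 did not pass (edgeR quasi-likelihood test, Benjamini-Hochberg adjusted p below 0.05 over all genes). Over all genes tested 11.6% were called, 6.30% as rises and 5.32% as falls. Values are given as CPM (counts scaled to a common library size with TMM factors) for tests of 1 gene between the groups, and as FPKM, the deposited level per gene length, where levels of different genes are set side by side. The median log2 fold change of the 10 genes was -0.03, beside -0.01 over all genes tested, with a range from -1.19 to 0.96. In 6 of the 10 the groups overlapped, in 2 every LNP-Gsdme library was higher and in 2 lower. Over all genes tested the groups did not overlap in 37.8%, with LNP-Gsdme higher in 19.6% and lower in 18.2%.

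Library totals ran from 20233559 to 22932095 counts for LNP-GFP and from 15991826 to 18751784 counts for LNP-Gsdme. LNP-GFP 3 lay between LNP-GFP 1 and LNP-GFP 2 in 61.9% of genes tested, where the other libraries lay between the remaining 2 of their group in 19.0 to 37.5%. It did so in 6 of the 10 genes described here. Without LNP-GFP 3 none of the 10 passed by edgeR (3 had an unadjusted p below 0.05), and the same holds without LNP-Gsdme 1. Without LNP-Gsdme 2 only Apoe passed. Few genes of any kind passed in these fits: 64 rose and 24 fell of 16219 tested without LNP-GFP 3. The numbers were 107 and 46 of 16527 without LNP-Gsdme 1, and 119 and 68 of 16512 without LNP-Gsdme 2. DESeq2 and limma-voom on all 6 libraries called the same 3 genes.

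**Figure D1:**
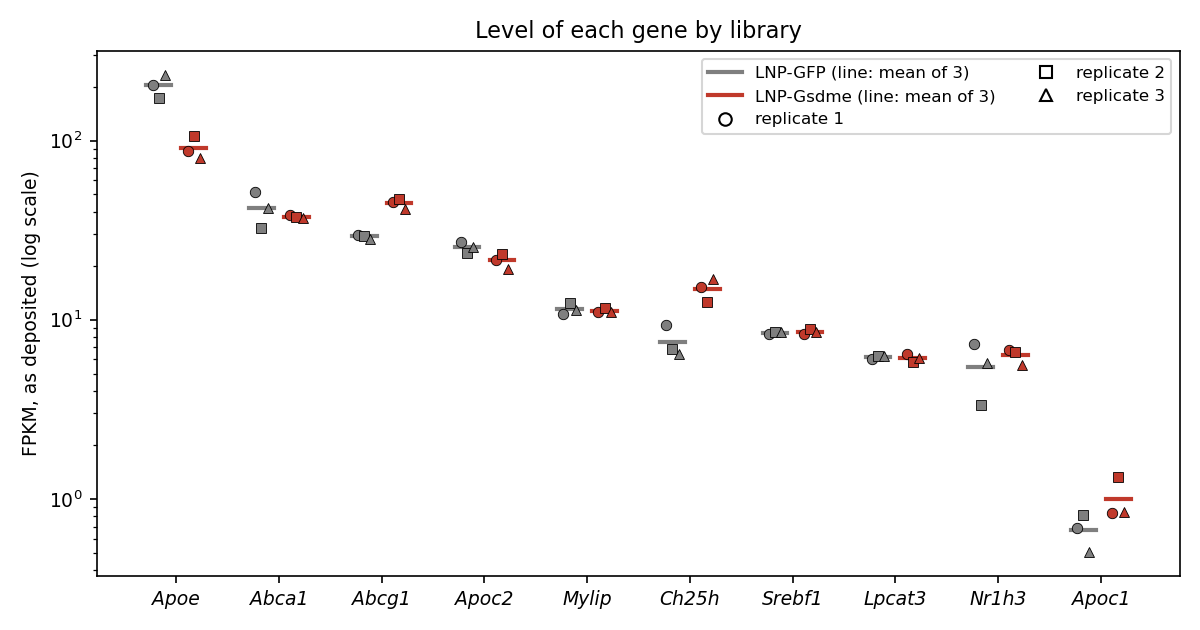
Deposited FPKM (log axis) of the 10 genes in the 3 LNP-GFP (grey) and 3 LNP-Gsdme (red) libraries, with symbols for replicates and a line at each group's mean. Apoe is the highest in both groups, at 174 to 233 against 80.1 to 106 FPKM; Abcg1 and Ch25h are higher in every LNP-Gsdme library, and Abca1 and Nr1h3 spread most in LNP-GFP among the genes above 1 FPKM.

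Of the 2 cholesterol pumps Abcg1 rose, and Abca1 did not pass. Abcg1 (chromosome 17, 31276649 to 31336962, GRCm39), which passes cholesterol to HDL particles, read 248, 251 and 239 CPM across LNP-GFP 1 to 3 against 384, 394 and 336 CPM across LNP-Gsdme 1 to 3. The 3 control libraries lay close together and below every LNP-Gsdme library. Abcg1 rose 1.51-fold (edgeR adjusted p = 0.0132; log2 difference 0.60 with SE 0.08, n = 3 and 3). The adjusted p missed the threshold without LNP-GFP 3 (0.0859), LNP-Gsdme 1 (0.0668) or LNP-Gsdme 2 (0.0657). Abca1 (chromosome 4, 53030787 to 53159895), which loads cholesterol and phospholipid onto lipid-poor apolipoproteins, read 544, 352 and 447 CPM across LNP-GFP 1 to 3. Its LNP-Gsdme libraries read 411, 396 and 378 CPM, all inside the range of the controls. It had a log2 difference of -0.18 (SE 0.16, n = 3 and 3; edgeR adjusted p = 0.454), with a 95% interval from -0.55 to 0.19 that does not reach the estimate for Abcg1. Without LNP-GFP 1, its highest library, the Abca1 value was -0.01, and without LNP-GFP 2 it was -0.32 (adjusted p = 0.974 and 0.123).

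The ratio of the 2 pumps needs no scaling between libraries. Per gene length, Abcg1 stood at 0.576, 0.904 and 0.676 times Abca1 in LNP-GFP 1 to 3 and at 1.18, 1.26 and 1.13 times Abca1 in LNP-Gsdme 1 to 3. Abca1 was thus the higher pump in every control library and Abcg1 in every LNP-Gsdme library (p = 0.1 by a two-sided exact permutation test, which cannot go lower with 3 against 3). In the controls the FPKM of Abca1 ran from 32.6 to 51.5, against 28.3 to 29.7 for Abcg1.

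Of the apolipoproteins, Apoe fell and its neighbours did not pass. Apoe (chromosome 7, 19430034 to 19433113) encodes apolipoprotein E, which macrophages secrete as an acceptor of exported cholesterol. It read 1335, 1156 and 1536 CPM across LNP-GFP 1 to 3 against 574, 690 and 504 CPM across LNP-Gsdme 1 to 3. The lowest control library lay well above the highest LNP-Gsdme library. The level was 2.28-fold higher in LNP-GFP (edgeR adjusted p = 0.0114; log2 difference -1.19 with SE 0.15, n = 3 and 3). Without LNP-GFP 3 the log2 difference was -1.08 (adjusted p = 0.0663), and without LNP-Gsdme 1 it was -1.17 (adjusted p = 0.0639). Among all genes tested, Apoe ranked 276 by mean FPKM in LNP-GFP and 604 in LNP-Gsdme. Its ratio to Abca1 per gene length went from 4.96 ± 0.860 to 2.42 ± 0.357 (SD, n = 3; exact permutation p = 0.1). In bulk libraries, fewer cells that express a gene and less of its RNA per cell cannot be told apart.

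Apoc2 (chromosome 7, 19405504 to 19411866), the cofactor of lipoprotein lipase, lies in the same cluster, 27610 bases long from its start to the end of Apoe. It read 33.0, 29.6 and 31.6 CPM across LNP-GFP 1 to 3 against 26.7, 28.4 and 22.8 CPM across LNP-Gsdme 1 to 3. The groups did not overlap, but they came close, and the gene did not pass (edgeR adjusted p = 0.137; log2 difference -0.27 with SE 0.11, n = 3 and 3). The overlapping gene model Apoc2l had 4 to 14 counts per library, against 442 to 757 for Apoc2. Apoc1 (chromosome 7, 19423406 to 19426585), between Apoc2 and Apoe and 3448 bases from Apoe, was near the detection limit with 13 to 27 counts per library. Its log2 difference of 0.54 (SE 0.31, n = 3 and 3, edgeR adjusted p = 0.277) had a 95% interval from -0.20 to 1.28. That interval spans 0 and leaves more room for a rise than for a fall. Apoc4, the fourth apolipoprotein gene of the cluster, had 0 to 5 counts per library and was not tested. The nearest genes outside the cluster, Clptm1 and Tomm40, had 1978 to 3140 and 653 to 985 counts per library.

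Per gene length Apoe stood at 8.01 ± 0.973 times the level of Apoc2 for LNP-GFP and at 4.24 ± 0.279 times that level for LNP-Gsdme (SD, n = 3; exact permutation p = 0.1). The ratio was lower in every LNP-Gsdme library than in any control. The genes whose log2 CPM followed that of Apoe most closely over the 6 libraries included Eif3i, a translation initiation factor subunit, and Anxa5, which encodes annexin A5. Pearson's r was 0.989 and 0.988 among 7311 genes searched, with both groups contributing to it. Their own differences were smaller, with log2 fold changes of -0.30 and -0.18.

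Ch25h (chromosome 19, 34451178 to 34452564), the oxysterol-producing enzyme, rose by the largest log2 value of the 10. It read 12.9, 9.71 and 8.99 CPM across LNP-GFP 1 to 3 against 21.4, 17.4 and 22.6 CPM across LNP-Gsdme 1 to 3. Every LNP-Gsdme library was above every control, the nearest pair being LNP-GFP 1 and LNP-Gsdme 2. The fold change was 1.94 (edgeR adjusted p = 0.0243; log2 difference 0.96 with SE 0.17, n = 3 and 3). Leaving out LNP-GFP 3 moved that p to 0.112, leaving out LNP-Gsdme 2 to 0.0657 and leaving out LNP-GFP 2 to 0.0604, and it missed 0.05 without LNP-Gsdme 1 as well. The lncRNA model Gm26902 overlaps it and had 4 to 23 counts per library, against 180 to 438 for Ch25h.

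The receptor gene Nr1h3 and the other 3 targets did not pass. Nr1h3 (chromosome 2, 91014406 to 91033179) encodes LXR alpha, the receptor form of macrophages and liver. It read 38.0, 17.6 and 29.9 CPM across LNP-GFP 1 to 3 against 35.3, 34.2 and 27.9 CPM across LNP-Gsdme 1 to 3. The controls alone spanned more than the LNP-Gsdme libraries did, and the log2 difference of 0.19 (SE 0.27, n = 3 and 3; adjusted p = 0.657) turned to -0.06 without LNP-GFP 2 and to 0.46 without LNP-GFP 1. Its 95% interval ran from -0.46 to 0.84, which leaves room for a change in either direction.

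Srebf1 (chromosome 11, 60089915 to 60113407), the lipogenic transcription factor, had the value nearest 0 of the 10. It read 76.8, 80.0 and 79.3 CPM across LNP-GFP 1 to 3 against 77.2, 81.2 and 75.9 CPM across LNP-Gsdme 1 to 3. It had a log2 difference of -0.01 (SE 0.07, n = 3 and 3), with a 95% interval from -0.17 to 0.15. Lpcat3 (chromosome 6, 124639990 to 124681381), the phospholipid-remodelling enzyme, had a log2 fold change of -0.05 (interval -0.24 to 0.14) at 35.6 to 39.8 CPM over all 6 libraries. Mylip (chromosome 13, 45543218 to 45565498), the ligase that removes lipoprotein receptors, had one of -0.06 (interval -0.28 to 0.15) at 41.1 to 49.0 CPM. For these 3 genes the libraries of both groups were interleaved. Srebf1 shares a stretch with the end of Rai1 and Lpcat3 with Emg1, whose counts per library were 184 to 304 and 830 to 1035, and how reads in the shared stretches were counted is not stated.

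Ordered by mean FPKM, LNP-GFP monocytes had Apoe first, then Abca1, Abcg1, Apoc2, Mylip, Srebf1, Ch25h, Lpcat3, Nr1h3 and Apoc1. The neighbours Srebf1 and Ch25h overlapped in their libraries, as did Lpcat3 and Nr1h3. In LNP-Gsdme the order was Apoe, Abcg1, Abca1, Apoc2, Ch25h, Mylip, Srebf1, Nr1h3, Lpcat3 and Apoc1, and only Nr1h3 and Lpcat3 overlapped. Abcg1 thus exchanged places with Abca1, and Ch25h moved from position 7 to 5, at 7.52 ± 1.56 FPKM in LNP-GFP and 14.9 ± 2.15 FPKM in LNP-Gsdme (SD, n = 3). Mean levels in LNP-GFP ran from 204 FPKM for Apoe to 0.668 FPKM for Apoc1.

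**Figure D2:**
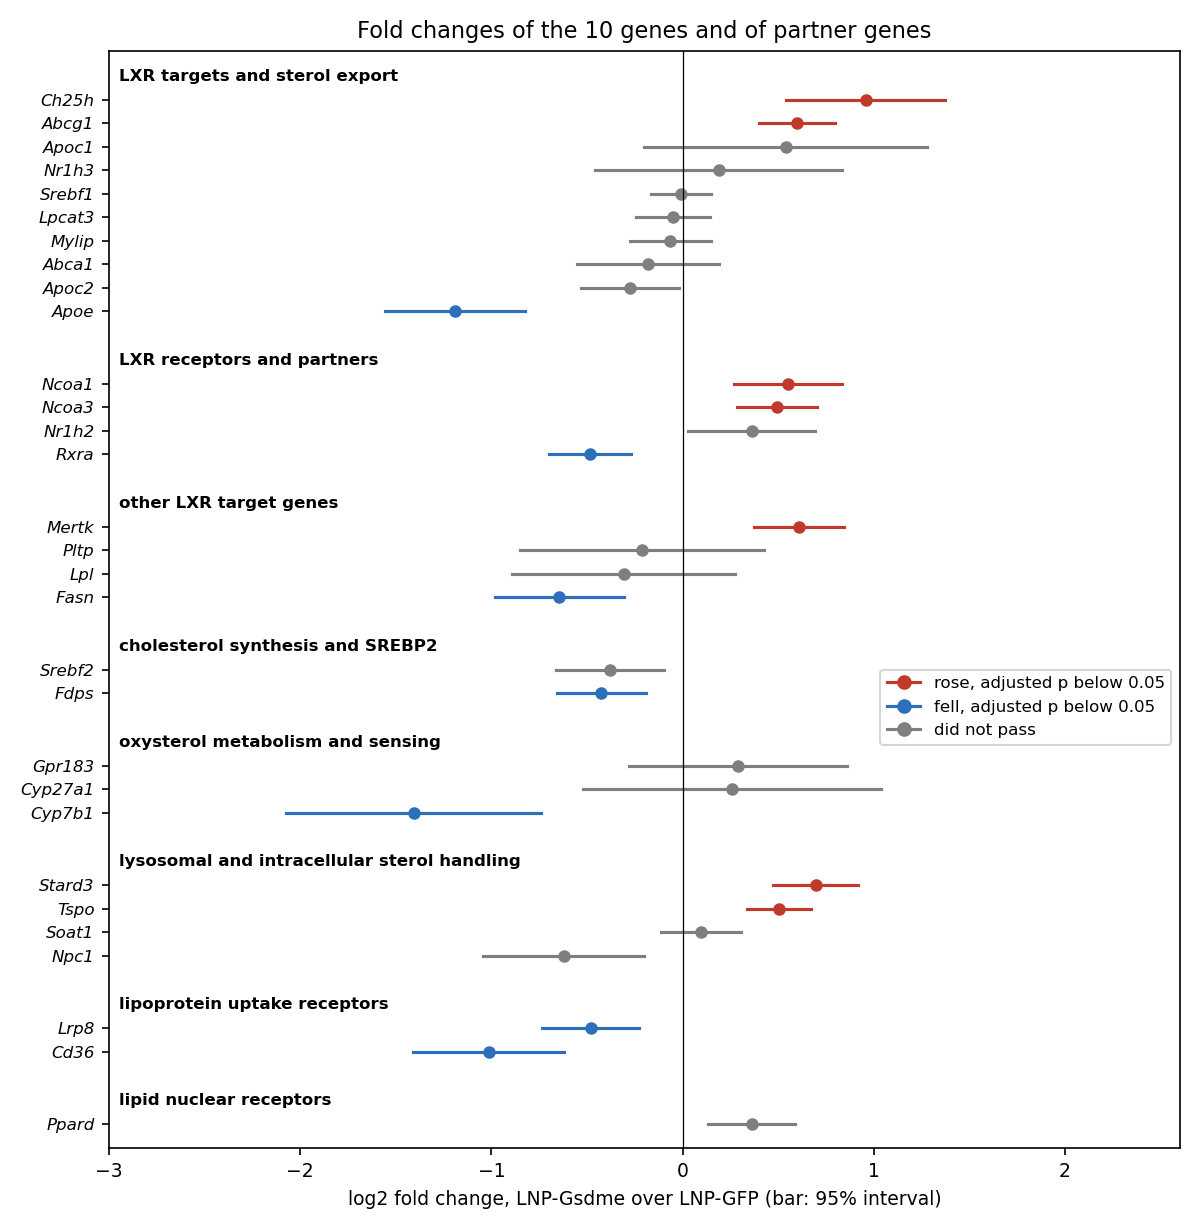
Log2 fold changes, LNP-Gsdme over LNP-GFP, with 95% intervals for the 10 genes and for partner genes, by list (n = 3 libraries per group). Red marks genes that rose, blue those that fell and grey those that did not pass. Cyp51, reported in the text, is not shown. Ch25h (0.96), Abcg1 (0.60) and Apoe (-1.19) stand clear of 0 while Srebf1, Lpcat3 and Mylip sit within 0.07 of it.

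Of 101 other genes of sterol handling, 91 were tested, of which 5 rose and 9 fell, beside 11.6% called over all genes tested. That share, 6.30% as rises and 5.32% as falls, is also the background for the counts of each list below. Their median log2 fold change was -0.05, beside -0.01 over all genes tested. DESeq2 called 10 rises and 20 falls, beside 1527 and 1493 over all genes. Without LNP-GFP 3, LNP-Gsdme 1 or LNP-Gsdme 2 edgeR called none (29 to 33 had an unadjusted p below 0.05). Among all genes, 16219 to 16527 in number, these 3 fits called only 64 to 119 rises and 24 to 68 falls.

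Among 9 tested receptors and cofactors, Ncoa1 and Ncoa3 rose and Rxra fell. Rxra encodes RXR alpha, the partner receptor, and read 46.5, 51.1 and 49.7 CPM across LNP-GFP 1 to 3 against 32.2, 35.1 and 38.1 CPM across LNP-Gsdme 1 to 3. All controls were above all LNP-Gsdme libraries (adjusted p = 0.0252; log2 difference -0.48 with SE 0.09, n = 3 and 3). Ncoa1 and Ncoa3, coactivators of many nuclear receptors, rose by 0.55 and 0.49 on the log2 scale. Nr1h2, the widely expressed LXR beta, had a log2 fold change of 0.36 and did not pass (adjusted p = 0.133).

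Among 15 tested further targets of liver X receptors, Mertk rose and Fasn fell, and the median was -0.31. Mertk, a receptor for the uptake of dying cells, lay between 19.3 and 21.5 CPM in the controls and between 28.2 and 33.0 CPM in LNP-Gsdme (adjusted p = 0.0197). Fasn, whose promoter carries the same DR4-type letters as that of Abca1, averaged 98.5 ± 15.7 CPM in the controls against 62.9 ± 6.94 CPM in LNP-Gsdme (SD over 3 libraries each; adjusted p = 0.0360). The 3 genes whose promoters are shown for DR4-type letters had log2 fold changes of -0.18 (Abca1), -0.01 (Srebf1) and -0.65 (Fasn). Of these 3, 1 was called, beside 11.6% over all genes tested. Fasn is among them only because it holds the letters of Abca1, and promoters of the remaining further targets are not shown. Pltp, a phospholipid carrier between lipoproteins, and Lpl, lipoprotein lipase, differed by -0.21 and -0.31 on the log2 scale, short of the threshold (adjusted p = 0.611 and 0.415).

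Of 26 genes of cholesterol synthesis and of SREBF2, its master regulator, 4 fell, 0 rose and 22 did not pass by edgeR, with a median of -0.23. Over all genes tested 5.32% fell and 6.30% rose. By edgeR 14 of the 26 had an unadjusted p below 0.05, beside 5051 of the 16010 genes tested, and DESeq2 called 8. The falls included Fdps (log2 fold change -0.43) and Cyp51 (-0.45), which encode enzymes of the route. Fdps read 26.2, 29.7 and 24.7 CPM across LNP-GFP 1 to 3 against 20.5, 19.3 and 20.2 CPM across LNP-Gsdme 1 to 3 (adjusted p = 0.0405), and all controls lay above all LNP-Gsdme libraries. Srebf2 stood at -0.38 (adjusted p = 0.0838). Cyp51 falls outside the rule by which genes were named and was chosen after its values were seen.

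Of 9 tested genes of oxysterol metabolism and sensing 1 fell and 0 rose. Cyp7b1, which clears 25-hydroxycholesterol, read 2.22, 3.94 and 3.10 CPM across LNP-GFP 1 to 3 against 1.29, 0.936 and 1.24 CPM across LNP-Gsdme 1 to 3. The groups did not overlap (adjusted p = 0.0289; log2 difference -1.41 with SE 0.28, n = 3 and 3), at a level close to the low-count filter. Ch25h, the enzyme that makes this oxysterol, and Cyp7b1 thus moved in opposite directions. Gpr183, the receptor that guides cells along a gradient of a product of both enzymes, and Cyp27a1, which makes 27-hydroxycholesterol, differed by 0.29 and 0.26 on the log2 scale, short of the threshold (adjusted p = 0.433 and 0.616).

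Of 14 tested genes of sterol handling inside the cell, Stard3 and Tspo rose and 0 fell. Stard3, a cholesterol carrier of late endosomes, averaged 63.0 ± 1.43 CPM in the controls against 102 ± 10.9 CPM in LNP-Gsdme (SD over 3 libraries each; adjusted p = 0.0126), and Tspo, a cholesterol-binding protein of the outer mitochondrial membrane, rose by 0.50 on the log2 scale. Soat1, which esterifies cholesterol for storage, had a log2 fold change of 0.09, and Npc1, which lets cholesterol out of lysosomes, one of -0.62 (adjusted p = 0.483 and 0.0674). Of 10 lipoprotein uptake receptors Cd36 and Lrp8 fell and 0 rose. Cd36, which takes up oxidised LDL and fatty acids, read 625, 403 and 504 CPM across LNP-GFP 1 to 3 against 253, 233 and 273 CPM across LNP-Gsdme 1 to 3 (adjusted p = 0.0207). Its controls varied widely, yet all lay above the LNP-Gsdme libraries. The last list held nuclear receptors linked to lipids, together with the coactivator genes Ppargc1a and Ppargc1b. None of its 8 tested genes passed by edgeR (4 had an unadjusted p below 0.05, and DESeq2 called 2). The smallest p was that of Ppard (log2 fold change 0.36, edgeR adjusted p = 0.0568).

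The summed levels of fibroblast, dendritic cell, endothelial, NK cell and Ly6C-high monocyte markers did not overlap between the groups, while those of melanoma cells, macrophages, neutrophils, T cells, B cells and Ly6C-low monocytes did. Summed over 10 fibroblast markers, led by Col1a1 and Col3a1, the level was 9248 to 10254 CPM for LNP-GFP and 2311 to 5787 CPM for LNP-Gsdme, and 5 of the 10 fell. Between the groups, this sum and Apoe were both lower in every LNP-Gsdme library than in any control. Within LNP-Gsdme the fibroblast sum was highest in LNP-Gsdme 3 (5787 CPM, against 3102 and 2311 CPM), the library with the lowest Apoe. Summed over 9 melanoma markers, led by Dct and Tyrp1, the controls LNP-GFP 1 to 3 reached 297, 1772 and 1051 CPM, against 88.5, 138 and 708 CPM for LNP-Gsdme 1 to 3, and 0 of the 9 passed (edgeR; 1 had an unadjusted p below 0.05, and DESeq2 called 0). Among the controls this sum was highest in LNP-GFP 2, the control library with the lowest Apoe, Abca1 and Nr1h3. The fibroblast, Ly6C-high monocyte and neutrophil sums were also highest there among the controls. LNP-GFP 3, the control with the highest Apoe, had a higher melanoma sum than LNP-GFP 1 (1051 against 297 CPM). The sum over 12 macrophage markers, led by C1qb and Cd68, ran from 4074 to 6029 CPM in LNP-GFP and from 4745 to 4914 CPM in LNP-Gsdme, and 0 of the 12 passed (edgeR; 5 had an unadjusted p below 0.05, and DESeq2 called 3). Within LNP-GFP it stood at 6029, 4074 and 5015 CPM, the same order of libraries as for Abca1 and Nr1h3. That order was not particular to macrophage markers. The T cell, NK cell, endothelial and Ly6C-low monocyte sums had it too, and LNP-GFP 3 was the middle library in 61.9% of genes tested.

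Sums over the other lists ran as follows. NK cell markers (Gzmb and Prf1 highest) summed to 96.5 to 411 CPM for LNP-GFP and 416 to 554 CPM for LNP-Gsdme, and T cell markers to 176 to 495 and 430 to 545 CPM. Dendritic cell markers summed to 351 to 394 and 221 to 271 CPM, endothelial markers to 301 to 360 and 231 to 292 CPM, and neutrophil markers to 189 to 438 and 240 to 448 CPM. Markers of Ly6C-high monocytes (Cd14 and Fn1 highest) summed to 7099 to 9281 and 6484 to 6882 CPM, with 3 of 10 rising and 3 falling. Ly6c2, which encodes the antigen by which both groups were sorted as high, was at 211 to 267 CPM in the controls against 1374 to 1856 CPM. Sums were 858 to 1028 and 845 to 1090 CPM for Ly6C-low monocytes and 5.40 to 6.09 and 4.28 to 5.73 CPM for B cells. Ly6g, the antigen excluded by the sort, and the B cell genes Cd79a, Ms4a1 and Pax5 had a mean under 0.5 CPM, as did the NK cell gene Ncr1. The part of any of these cell types in the differences of Apoe, Abcg1 and Ch25h was not tested.

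**Figure D3:**
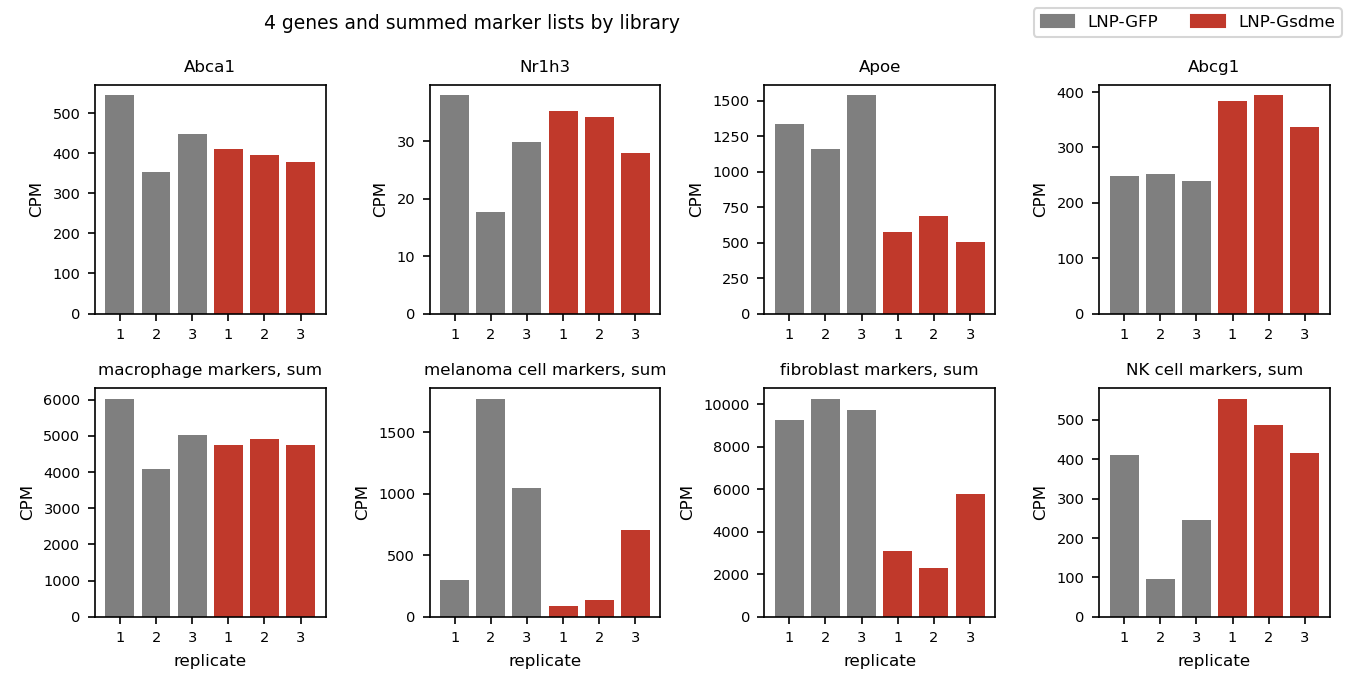
CPM in each library (bars, starting at 0) of Abca1, Nr1h3, Apoe and Abcg1, above the summed CPM of marker lists for macrophages, melanoma cells, fibroblasts and NK cells (grey LNP-GFP, red LNP-Gsdme). Abca1, Nr1h3 and the macrophage and NK cell sums have the same order in LNP-GFP 1 to 3 (544, 352 and 447 CPM for Abca1). Apoe is highest in LNP-GFP 3 and Abcg1 differs little among the controls.

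**Figure D4:**
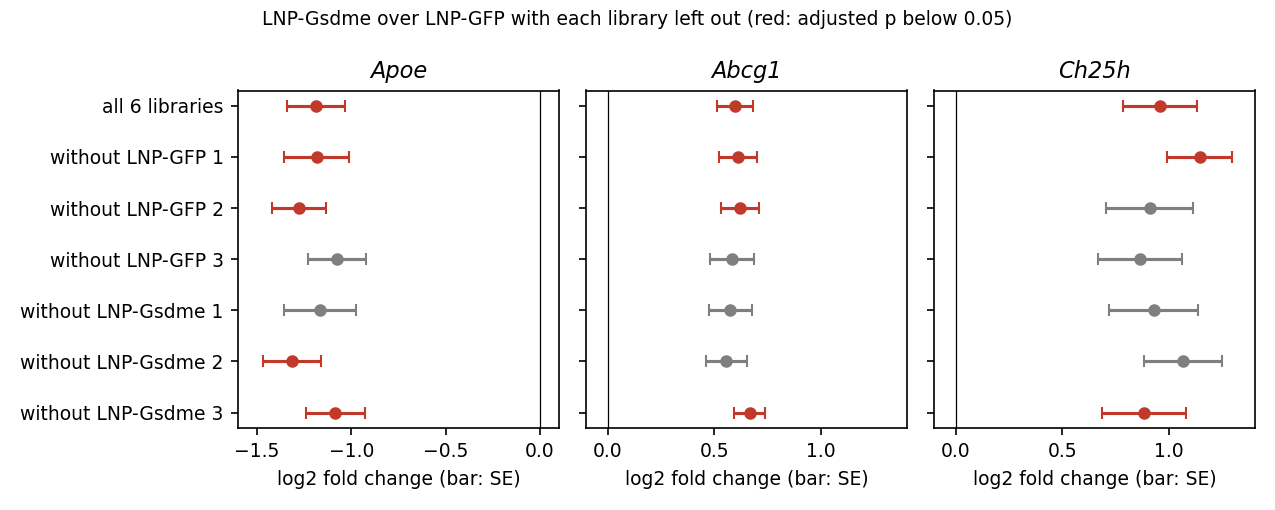
Log2 fold changes with SE for Apoe, Abcg1 and Ch25h with all 6 libraries and with each left out in turn (red where the adjusted p is below 0.05, grey where not). Estimates stayed between -1.31 and -1.08 for Apoe, 0.55 and 0.67 for Abcg1 and 0.86 and 1.14 for Ch25h, and the calls were lost without LNP-GFP 3 and without LNP-Gsdme 1 for all 3 genes.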

How the data were processed

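RNA was sequenced from 6 libraries of sorted tumour monocytes (TruSeq paired-end kit, per the labels' protocols). The authors deposited 1 table of raw counts per gene, not normalized, and of FPKM, the level per gene length and library size, per the file headers. The submitters' processing notes name GRCm39. Aligner, counter, strand setting and annotation release were not found in the labels or headers (not given in the sources used here), so reads in overlapping genes may have gone to either. Groups came from the treatment labels. Counts were tested in R 4.3.3 with edgeR 4.0.16 (filterByExpr, TMM factors, robust quasi-likelihood test, no covariates), Benjamini-Hochberg adjusted over all genes, with a threshold of 0.05, and the code was tested on simulated data. SE is the log2 fold change divided by the square root of the F statistic. FPKM served to give levels per gene length, to order the genes and to form ratios of genes within a library. Only the ratios were tested, with exact permutation tests. The alternatives were DESeq2 1.42.0, limma-voom (limma 3.58.1), other normalizations, filters and thresholds, no robust fitting, a replicate block and leaving out each library.

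Members and lists were chosen with earlier results of these data known. Named partner genes were 12 fixed partners, plus up to 3 called genes of smallest p per list, the 1 of smallest p where none was called, the 3 genes most correlated with the member of highest FPKM (which also had the smallest p), the neighbours of the apolipoprotein cluster and the 2 highest genes of marker lists. Promoters were matched by symbol. Of the genes, 1542 had no symbol and were tested under their identifiers. Values of some single genes that the rule names are not reported here.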

Additional observations from a re-analysis of the deposited data

How the results depend on the processing

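Abcg1, Apoe and Ch25h kept their direction and their calls under DESeq2, limma-voom, each normalization, each low-count filter and fitting without robust estimation. They lost the call with the replicate block (log2 fold changes 0.59, -1.19 and 0.96). Leaving out 1 library gave 0.55 to 0.67 for Abcg1, -1.31 to -1.08 for Apoe and 0.86 to 1.14 for Ch25h. Of the 10 genes, 0 to 2 rose and 0 to 1 fell with 1 library left out, and 0 rose and 0 fell with the block (3 with an unadjusted p below 0.05 by edgeR) or at an adjusted p below 0.01. Over all genes 1008 rose and 851 fell; DESeq2 called 1527 and 1493, the block 103 and 52, the stricter threshold 131 and 52, and leaving out 1 library 64 to 1625 and 24 to 1216. Of the other sterol genes, 5 rose and 9 fell; DESeq2 called 10 and 20, the block and the stricter threshold 0 and 0, and leaving out 1 library 0 to 9 and 0 to 15. Fewer samples lower the power of each such fit, and the cause of any other change was not tested. Same-numbered libraries did not deviate together (correlations 0.21, -0.24 and 0.03). With 3 libraries per group, these correlations cannot exclude a pairing by number. The sign changed under 1 of 15 alternatives each for Mylip, Nr1h3 and Pltp and under 5 for Srebf1, none of which called them. Apoc1 had only 13 to 27 counts per library, and the part of depth in its wide interval was not tested.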
